A study of Homo sapiens with 2 samples.

Results

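The genes described here are 50 splicing factors and kinases of splicing factors, chosen by symbol among the 60527 genes of the deposited table. They comprise 12 SR and SR-like proteins, 14 heterogeneous nuclear ribonucleoproteins (hnRNPs), 10 proteins of splice site recognition and the spliceosome core, 5 kinases, 3 RBM proteins, 3 SR-related proteins of nuclear speckles, and DDX5, SFPQ and NONO. The hnRNPs of the AUF1 group were left out of the set. Each symbol matched 1 gene.

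Cultures labelled SK-MEL-2 gave the total RNA that was sequenced. SK-MEL-2 is an established human melanoma line, and it was grown with serum and kept for 48 h with either the solvent DMSO or 1.75 µM JNJ-7706621. The compound, called the inhibitor below, blocks cyclin-dependent kinases and Aurora kinases. There was 1 library per group, so no difference below has a replicate check, no test was run, and the intervals given are 95% counting intervals. Levels are in FPKM, fragments per kilobase of exon and per 1000000 mapped fragments, and a ratio is FPKM with JNJ-7706621 over FPKM with DMSO.

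The FPKM values rested on library totals of 23377161 reads for DMSO and 22817719 reads for JNJ-7706621. The label of the line was not matched by its defining genes. Of 7 melanocyte markers only MITF and PMEL had a mean FPKM of at least 1, SOX10 had 1 read and 0 reads, and TYR had 0 in both libraries. The summed level of the 7 was 4.92 FPKM with DMSO and 6.25 FPKM with JNJ-7706621, with members from 0 to 2.65 FPKM and from 0 to 3.71 FPKM. All 5 epithelial markers (EPCAM, CDH1, KRT8, KRT18, KRT19) passed 1 FPKM, with sums of 1962 and 1979 FPKM. The 8 fibroblast, immune and endothelial markers had no mean FPKM of at least 1. The part of cell identity in the splicing gene values was not tested. In bulk RNA, fewer cells of a type and less RNA per cell cannot be told apart.

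Splicing removes introns from pre-mRNA in steps carried out by the spliceosome, which is built anew on each intron from small nuclear ribonucleoproteins and many other proteins. SR proteins carry arginine-serine repeats and mostly promote the use of nearby exons, whereas hnRNPs often oppose them. Kinases of the CLK and SRPK families phosphorylate the arginine-serine repeats and so control where SR proteins are and what they bind. Many splicing factor genes limit their own output by splicing their transcripts into forms that carry an early stop codon or keep an intron, and a gene's FPKM counts all of these forms together.

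Near-identical copies touch some of these genes directly, and U2AF1 most of all, so its sequence is shown first. The opening 60 coding bases of U2AF1 are set beside the matching stretch of a gene with the same sequence, 5′ to 3′, from GENCODE release 29 on GRCh38, where capitals would mark a mismatch and 0 were found.
U2AF1: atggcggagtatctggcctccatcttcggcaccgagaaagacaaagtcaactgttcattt
U2AF1L5: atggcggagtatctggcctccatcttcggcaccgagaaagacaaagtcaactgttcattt
A read from this stretch cannot be given to 1 gene by its sequence. The genes lie at chr21:43092956-43107587 (U2AF1) and chr21:6484623-6499261 (U2AF1L5), both on the minus strand.

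U2AF1, the subunit of U2AF that reads the AG at the end of an intron, had almost no reads. It was listed at 0.0808 FPKM with DMSO and 0.0552 FPKM with JNJ-7706621, on 21 and 14 reads, with a ratio of 0.683 (0.321 to 1.41). Its partner U2AF2, which binds the pyrimidine tract, stood at 37.4 and 35.6 FPKM. U2AF1L5 was also low, at 0.242 and 0.173 FPKM on 63 and 44 reads. Of the 75-base windows in annotated U2AF1 transcripts, 91.8% occur in transcripts of another gene, most often U2AF1L5. The handling of reads that match several places is not given in the sources used here, so the level of U2AF1 is uncertain. It was the 1 member with a mean FPKM under 1, and the other 49 enter the counts below.

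The remaining members had more reads than U2AF1. Their levels ran from 1.27 to 152 FPKM with DMSO and from 0.819 to 148 FPKM with the inhibitor. The median member had 4265 reads in DMSO and 3386 in JNJ-7706621, against 578 and 553 for the median of all genes tested. Depth does not settle every level. With U2AF1 included, 8 members share at least 10% of their transcript windows with other genes, 28 share less and 14 share none. The share was 51.8% for SRSF1, 42.7% for SRSF9, 26.0% for SRSF2 and 20.2% for HNRNPA1. It was 16.7% for RBM5, 14.3% for HNRNPA3 and 13.4% for HNRNPU. For HNRNPA1 and HNRNPA3 the gene sharing most windows was a pseudogene copy, and such reads are uncertain in the same way as those of U2AF1. For SRSF1, SRSF9, SRSF2, RBM5 and HNRNPU it was a gene whose exons overlap at the same place. Reads of such overlaps can be placed, and the uncertainty is which gene they come from.

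**Figure D1:**
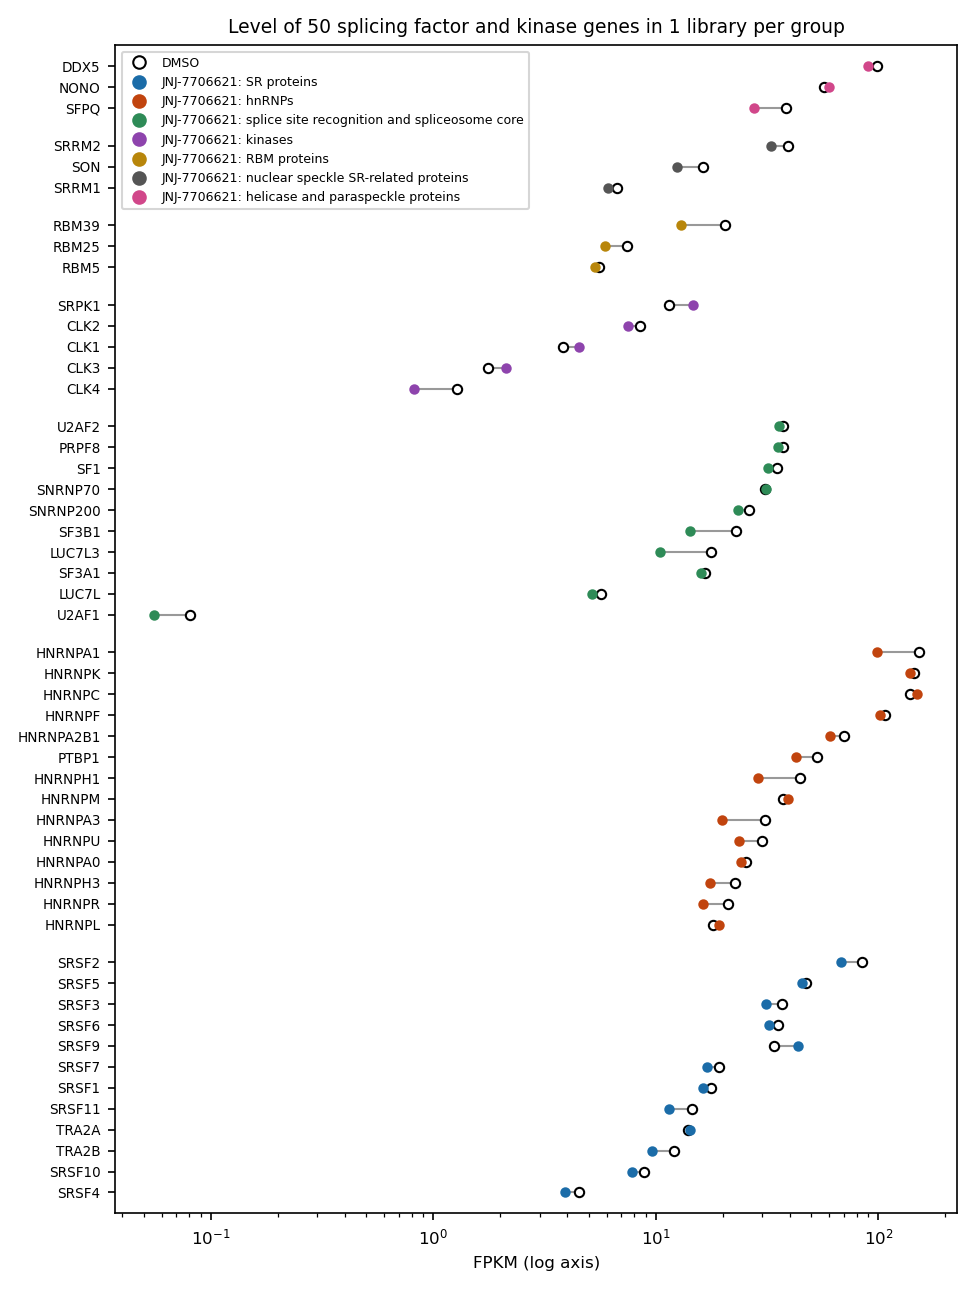
FPKM (log axis) of each of the 50 genes in the DMSO library (open circles) and the JNJ-7706621 library (filled circles, coloured by role), 1 library per group. HNRNPA1, HNRNPK and HNRNPC reached 139 to 152 FPKM in DMSO, and U2AF1 stands far to the left of all others.

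Most splicing factor genes were slightly lower in the JNJ-7706621 library, and none was 2-fold different. Differences were taken as log2(FPKM + 1) with the inhibitor minus the same with DMSO, which understates the change of low genes. Of 49 members, 0 had a difference of at least 1 and 0 of at most -1, against 2.39% and 1.36% of the 13241 genes tested, those whose mean FPKM reached 1. By a smaller size, 6 members lay at or below -0.5 and 0 at or above 0.5, against 9.75% and 11% of all genes. The 6 are 12.2% of the members, a share near the background. They lie on GRCh38 as follows: LUC7L3 at chr17:50719544-50756213, SF3B1 at chr2:197389784-197435091, RBM39 at chr20:35701347-35742312, HNRNPA3 at chr2:177212563-177223958 and HNRNPH1 at chr5:179614178-179634784, besides HNRNPA1 on chromosome 12. The direction was more one-sided: 39 members (79.6%) lay below 0, against 50.4% of all genes. Their median difference was -0.16, and the median of all genes was -0.0032.

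Counting intervals were read next. The interval lay below a ratio of 1 for 36 members and above 1 for 8, against 33.2% and 32.8% of all genes with recovered reads, and it spanned 1 for 5. Members have more reads than most genes and hence narrower intervals, so the direction is the more comparable part: 81.8% of the members with an interval off 1 were lower, against 50.3% of all such genes. Summed over the 50 genes, the level was 1772 FPKM with DMSO and 1566 FPKM with the inhibitor (ratio 0.884).

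**Figure D2:**
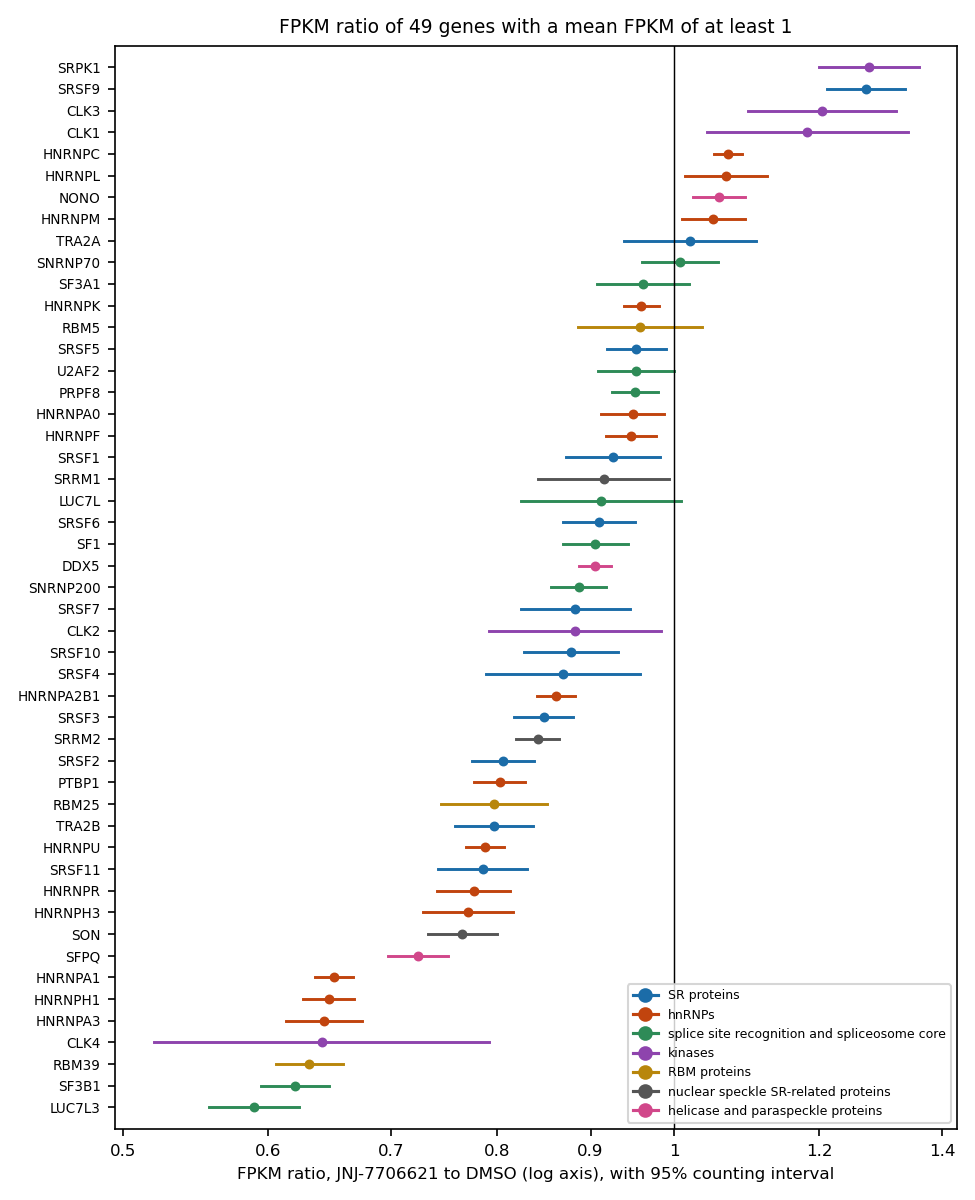
FPKM ratio of JNJ-7706621 to DMSO (log axis) for the 49 genes whose mean FPKM reached 1, with 95% counting intervals as lines and colours for role. The 7 lowest ratios run from 0.590 (LUC7L3) to 0.652 (HNRNPA1), and the highest is 1.28 (SRPK1).

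**Figure D3:**
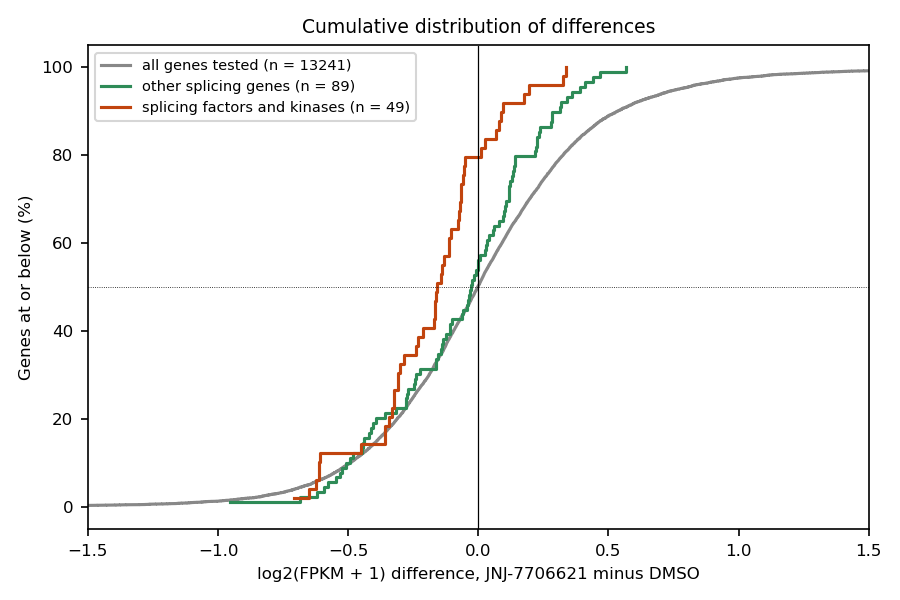
Share of genes (%) at or below each log2(FPKM + 1) difference, for the 49 splicing factors and kinases, 89 other splicing genes and all 13241 genes tested, with the axis limited to 1.5 on either side (151 genes lie outside). The curve of the 49 genes runs close to that of all genes below -0.5, and reaches 79.6% at 0, where the curve of all genes reaches 50.4%.

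Among SR proteins, 10 of 12 lay below 0, with a median difference of -0.17 and a range of -0.32 to 0.34. Summed, they went from 329 to 300 FPKM. SRSF11, an SR protein that contacts early spliceosome components, had 14.6 FPKM with DMSO and 11.5 FPKM with the inhibitor, giving a ratio of 0.786 (0.743 to 0.831) and the lowest of the group by log2 difference. After a fitted dependence on exon length and GC was subtracted from all genes, SRSF2 was lowest at -0.41 and SRSF11 had -0.22. SRSF2, which also marks nuclear speckles, was the most abundant, at 84.4 and 68.1 FPKM. SRSF3, the smallest SR protein, stood at 37.0 and 31.4 FPKM, a ratio of 0.848 (0.817 to 0.881). SRSF1, the founding member of the family, stood at 17.6 and 16.3 FPKM, a ratio of 0.925 (0.873 to 0.981). SRSF4, SRSF5, SRSF6, SRSF7 and SRSF10 had ratios from 0.869 to 0.953. The intervals of the relatives SRSF3 and SRSF7 overlap, as do those of SRSF4 and SRSF5.

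SRSF9 went the other way. It had 34.0 FPKM with DMSO and 43.3 FPKM with the inhibitor, giving a ratio of 1.27 (1.21 to 1.34), and had the highest log2 difference of the 49 genes. Exons of other genes overlap 46.2% of its annotated exon length, mostly those of GATC on the opposite strand, which itself stood at 22.6 and 29.1 FPKM. Whether the counting used strand was not stated, so reads of the overlapping part cannot be told apart. SRSF1 is overlapped over 60.7% of its annotated exon length, mostly by AC015813.2, which was listed at 0 in both libraries, and SRSF2 over 36.7%, mostly by MFSD11. The nearest length that fits the FPKM values of SRSF1 is 5781 bases, against 3340 annotated. Its shares of overlap and of shared windows may thus not describe the exons that were counted.

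The 2 transformer-2 homologues, which bind purine-rich exon enhancers, differed from each other. TRA2B stood at 12 and 9.58 FPKM, a ratio of 0.797 (0.759 to 0.837), and TRA2A at 13.9 and 14.2 FPKM, a ratio of 1.02 (0.939 to 1.11). Their counting intervals do not overlap. Such intervals are narrow where reads are many, and how often those of unrelated genes overlap was not counted, here or for the relatives below.

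Of 14 hnRNPs, 11 lay below 0 and 3 at or below -0.5, with a median difference of -0.26, or -0.13 after a fitted dependence on exon length and GC was subtracted from all genes. Summed, they went from 897 to 780 FPKM. HNRNPA1, which represses exons and opposes SRSF1 in the choice of splice sites, was the most abundant member with DMSO, at 152 FPKM, and had 99.0 FPKM with the inhibitor, giving a ratio of 0.652 (0.637 to 0.667) on 18075 and 11501 reads. Its relative HNRNPA3 stood at 30.9 and 19.9 FPKM, a ratio of 0.644 (0.613 to 0.675). HNRNPH1, which binds runs of G, stood at 44.4 and 28.7 FPKM, a ratio of 0.648 (0.627 to 0.669).

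Close relatives of these genes were nearer to level. HNRNPA2B1 stood at 70.3 and 60.6 FPKM and HNRNPA0 at 25.4 and 24.1 FPKM, a ratio of 0.949 (0.912 to 0.987). HNRNPF, which also binds runs of G, stood at 107 and 102 FPKM, a ratio of 0.947 (0.917 to 0.977), while HNRNPH3 lay between, at 22.8 and 17.6 FPKM with a ratio of 0.771 (0.729 to 0.816). The intervals of HNRNPA1 and HNRNPA0, and of HNRNPH1 and HNRNPF, do not overlap. Summed, HNRNPA1, HNRNPA2B1, HNRNPA3 and HNRNPA0 had a ratio of 0.731.

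HNRNPA1 and HNRNPA3 have many pseudogene copies. The table lists 75 copies named after HNRNPA1, of which 27 had reads, 705 in DMSO and 478 in JNJ-7706621, or 3.90% and 4.16% of the reads of HNRNPA1 itself. The copy with the highest mean level, HNRNPA1P7, stood at 12.2 and 9.60 FPKM. With the reads of all copies added, the ratio of HNRNPA1 was 0.653. For HNRNPA3, 7 of 16 copies had reads, and with them added its ratio was 0.639.

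The other hnRNPs had ratios on both sides of 1. HNRNPR stood at 21.0 and 16.3 FPKM, a ratio of 0.777 (0.742 to 0.814), and HNRNPU, a scaffold protein of nuclear RNA and chromatin, at 30.1 and 23.7 FPKM, a ratio of 0.788 (0.770 to 0.807). PTBP1, the repressor that binds pyrimidine tracts, stood at 53.1 and 42.7 FPKM. HNRNPK, HNRNPC, HNRNPM and HNRNPL had ratios from 0.959 to 1.07, and HNRNPC, which binds U-rich tracts, stood at 139 and 148 FPKM.

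Splice site recognition and core proteins had a median difference of -0.11 over 9 members, of which 8 lay below 0, and of -0.19 after the same subtraction, below that of the hnRNPs. LUC7L3, a relative of the yeast Luc7 protein of the U1 particle, had the lowest log2 difference of the 49 genes, -0.71. It had 17.7 FPKM with DMSO and 10.4 FPKM with the inhibitor, giving a ratio of 0.590 (0.557 to 0.624). Its relative LUC7L stood at 5.67 and 5.17 FPKM, a ratio of 0.912 (0.824 to 1.01), and the intervals of these relatives do not overlap. SF3B1, the U2 particle subunit that holds the branch site, stood at 22.9 and 14.2 FPKM, a ratio of 0.620 (0.594 to 0.648).

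The rest of the core had ratios from 0.886 to 1.01. SF3A1, another U2 particle subunit, stood at 16.6 and 15.9 FPKM. PRPF8, which lies at the catalytic centre, stood at 37.2 and 35.4 FPKM, and SNRNP200, the helicase that unwinds U4 from U6, at 26.3 and 23.3 FPKM, a ratio of 0.886 (0.856 to 0.918). SF1, which binds the branch site first, stood at 35.1 and 31.8 FPKM, a ratio of 0.905 (0.869 to 0.943). SNRNP70, of the U1 particle, stood at 30.9 and 31.1 FPKM, a ratio of 1.01 (0.960 to 1.06).

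The kinases differed from one another in direction. SRPK1, which phosphorylates SR proteins in the cytoplasm, had 11.4 FPKM with DMSO and 14.6 FPKM with the inhibitor, giving a ratio of 1.28 (1.199 to 1.36). CLK1, a nuclear kinase of SR proteins, stood at 3.84 and 4.54 FPKM, a ratio of 1.18 (1.04 to 1.34), and CLK3 at 1.76 and 2.12 FPKM, a ratio of 1.204 (1.10 to 1.32). CLK2 stood at 8.51 and 7.51 FPKM, a ratio of 0.882 (0.792 to 0.983). CLK4 stood at 1.27 and 0.819 FPKM, a ratio of 0.642 (0.520 to 0.792) on 236 and 148 reads. The intervals of CLK1 and CLK4, which are close paralogues, do not overlap, nor do those of CLK2 and CLK3. The median difference of the 5 kinases was 0.18, above 0, unlike the medians of the other role groups among the 49 genes. Of 6 further kinases of splicing factors outside the set, 5 lay below 0, with a median of -0.13, among them SRPK2 with a ratio of 0.893 and PRPF4B with one of 0.614.

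All 3 RBM proteins and all 3 speckle proteins lay below 0. RBM39, a relative of U2AF2, stood at 20.5 and 13.0 FPKM, a ratio of 0.632 (0.606 to 0.659), RBM25 at 7.42 and 5.92 FPKM, and RBM5 at 5.55 and 5.31 FPKM. SON, a scaffold of nuclear speckles, stood at 16.3 and 12.5 FPKM, a ratio of 0.766 (0.734 to 0.80). SRRM2, the other large speckle scaffold, stood at 39.2 and 33.0 FPKM and SRRM1 at 6.66 and 6.09 FPKM. SFPQ and NONO form dimers in paraspeckles, but their mRNAs differed: SFPQ stood at 38.2 and 27.7 FPKM, a ratio of 0.725 (0.698 to 0.752), and NONO at 56.9 and 60.1 FPKM, a ratio of 1.06 (1.02 to 1.09). DDX5, an RNA helicase, stood at 98.9 and 89.5 FPKM.

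**Figure D4:**
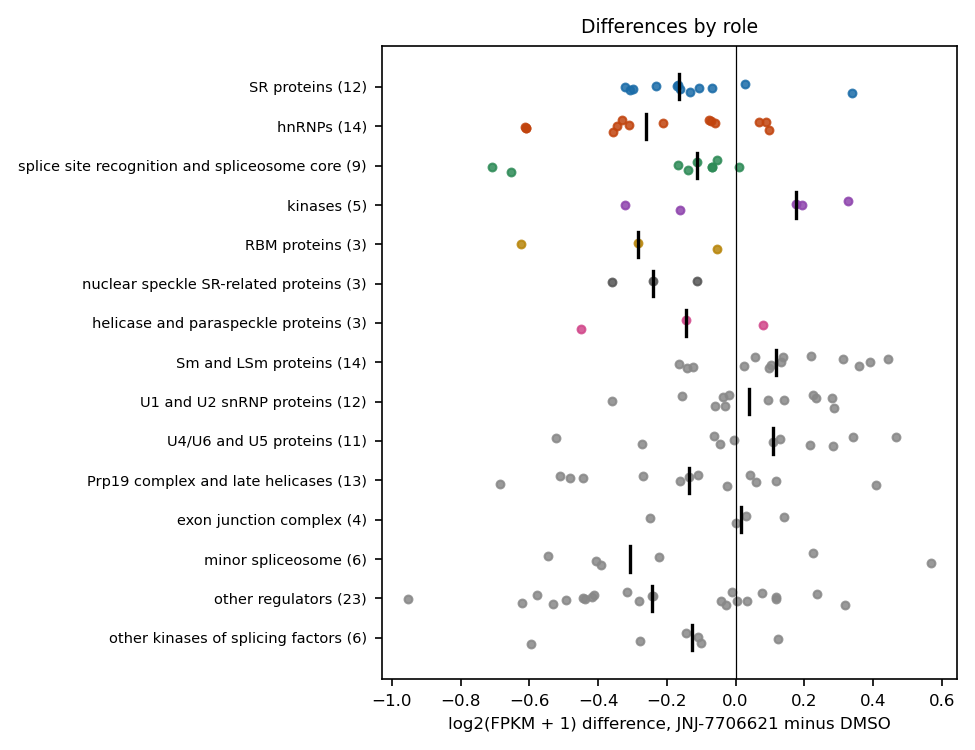
log2(FPKM + 1) difference of each gene by role, with the median as a black bar and the number of genes in parentheses, for the 49 splicing factors and kinases (colour) and 89 other splicing genes (grey). The kinases have a median of 0.18 and the hnRNPs one of -0.26 (-0.13 after the subtraction for length and GC), and Sm and LSm proteins lie mostly above 0.

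Other genes of the splicing pathway were taken from a list of 94 that holds none of the 50. Of the 89 whose mean FPKM reached 1, 1 lay at or above 0.5 and 9 (10.1%) at or below -0.5, with 0 past 2-fold in either direction. Their median difference was -0.03, and 49 of 89 (55.1%) lay below 0. By role, 11 of 14 Sm and LSm proteins, which form rings on the small nuclear RNAs, lay above 0 with a median of 0.12, while U4/U6 and U5 proteins had a median of 0.11 over 11 and other U1 and U2 particle proteins one of 0.04 over 12. Medians were below 0 in the minor spliceosome (-0.31, with 4 of 6 below 0), among regulators outside the snRNPs (-0.24, with 16 of 23 below 0) and in the Prp19 complex and late helicases (-0.13, with 9 of 13 below 0). The exon junction complex had a median of 0.02 over 4 genes.

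The lowest of these were RBMX, DDX46 and ESRP1. RBMX, an hnRNP encoded on the X chromosome, had 42.2 FPKM with DMSO and 21.3 FPKM with the inhibitor, giving a ratio of 0.505 (0.483 to 0.528). DDX46, a helicase of the branch site step, stood at 8.18 and 4.71 FPKM, and ESRP1, a splicing regulator of epithelial cells, at 19.3 and 12.2 FPKM. The highest were SNRNP25, of the minor spliceosome, at 6.89 and 10.7 FPKM, a ratio of 1.55 (1.38 to 1.74), PPIH at 10.9 and 15.5 FPKM, and LSM3 at 18.1 and 25.01 FPKM.

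Features of the genes that the choice by symbol did not use were compared next. Transcripts of the 49 genes were poor in GC, with a median content of 44.5%, against 49.1% for 10167 protein-coding genes tested. Their median exon length was 7118 bases, against 5090 bases. This length is the one recovered from the FPKM values, and it equalled the annotated length for 27 of all 50 members. The annotated length pools the exons of all transcripts of a gene, those with a retained intron included. Neither is the length of an mRNA. In the 6 genes at or below -0.5 the median GC content was 41.7%, in the 33 between -0.5 and 0 it was 44.7%, and in the 10 above 0 it was 48.1%. Across the 49 genes the difference correlated with GC content at r = 0.31 (Spearman 0.41) and with log10 exon length at r = -0.26 (Spearman -0.36), a description over genes of the same 2 libraries. Across protein-coding genes these r were 0.07 and -0.14.

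In each of 4 ranges of GC content, the share of members below 0 was above that of protein-coding genes. Under 42% GC, 16 of 18 members lay below 0, against 63.7% of 2080 protein-coding genes, and from 46% to 52% GC, 5 of 8 members did, against 38.8% of 2149. With a trend on exon length and GC content taken off all genes, the members' median was -0.14, with 37 of 49 below 0 (50.6% of all genes). Then 4 members stayed at or below -0.5 (HNRNPA1, LUC7L3, HNRNPH1 and HNRNPA3, against 9.12% of all genes), and SF3B1 and RBM39 had -0.48 each. HNRNPU, whose pooled exon length of 22512 bases was the longest of the set, went from -0.33 to 0.03.

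**Figure D5:**
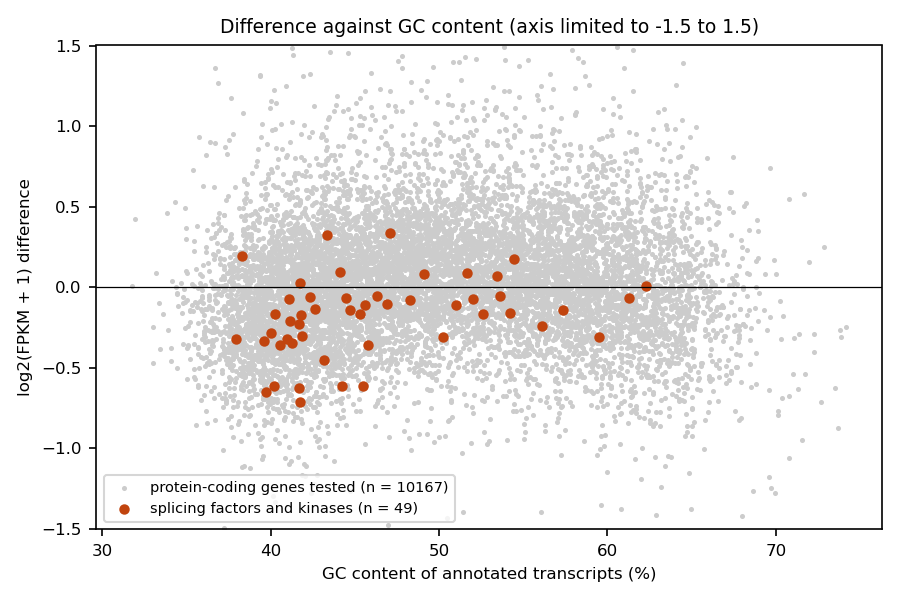
log2(FPKM + 1) difference against the GC content (%) of annotated transcripts, for 49 splicing factors and kinases (orange) over 10167 protein-coding genes tested (grey); 63 grey genes lie outside the axis limits. The 6 genes at or below -0.5 lie between 39.7% and 45.5% GC.

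Annotated forms that keep an intron or carry an early stop were common. Of the 49 genes, 40 (81.6%) had at least 1 transcript annotated with a retained intron, against 58.7% of protein-coding genes tested, and 42 (85.7%) had at least 1 annotated for nonsense-mediated decay, against 44.0%. RBM39 had 16 and 15 such transcripts and HNRNPH1 had 16 and 4. The 49 genes had a median of 14 annotated transcripts of any type, against 8, and these shares were not adjusted for that number. The number of retained-intron transcripts had r = -0.08 (Spearman 0.07) with the difference over the 49 genes. That of decay transcripts had r = -0.36 (Spearman -0.21). Across protein-coding genes these r were -0.05 and -0.02. The use of these forms was not measured, since the table has 1 value per gene.

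Promoters were matched for 45 members, as 250 bases before to 50 after a start site (RefSeq, GRCh38.p14), using the start nearest to the GENCODE gene start. HNRNPA1, RBM39, SFPQ, SRSF2 and TRA2A had no entry. The 2 lowest and the 2 highest matched members are printed to show how these promoters look at both ends of the range, 5′ to 3′, with capitals for any of 5 motifs on either strand. These were the CCAAT box, the GC box with the letters GGGCGG, the TATA box with the letters TATAAA, the E-box with the letters CACGTG, and TGACG, the core of the cyclic AMP response element.
LUC7L3 promoter, chr17:50719353-50719652, plus strand: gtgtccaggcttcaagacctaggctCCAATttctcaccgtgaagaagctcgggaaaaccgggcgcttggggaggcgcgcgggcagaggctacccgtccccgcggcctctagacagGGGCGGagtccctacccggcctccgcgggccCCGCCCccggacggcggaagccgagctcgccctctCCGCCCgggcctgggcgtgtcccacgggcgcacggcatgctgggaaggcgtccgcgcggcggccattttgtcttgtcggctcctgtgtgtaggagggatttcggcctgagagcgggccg
SF3B1 promoter, chr2:197435044-197435343, minus strand: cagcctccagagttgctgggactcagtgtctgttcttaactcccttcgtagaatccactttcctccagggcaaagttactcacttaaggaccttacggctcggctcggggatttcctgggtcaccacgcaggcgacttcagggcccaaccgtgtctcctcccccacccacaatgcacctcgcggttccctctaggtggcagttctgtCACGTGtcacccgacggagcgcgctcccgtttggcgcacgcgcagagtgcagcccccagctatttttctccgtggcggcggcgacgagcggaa
SRPK1 promoter, chr6:35921049-35921348, minus strand: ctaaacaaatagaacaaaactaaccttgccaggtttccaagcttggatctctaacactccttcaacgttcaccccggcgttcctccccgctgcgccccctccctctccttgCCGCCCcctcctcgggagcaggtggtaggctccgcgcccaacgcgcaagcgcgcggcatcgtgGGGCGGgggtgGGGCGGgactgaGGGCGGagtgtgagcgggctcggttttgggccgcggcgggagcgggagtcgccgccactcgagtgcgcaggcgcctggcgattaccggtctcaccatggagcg
SRSF9 promoter, chr12:120469699-120469998, minus strand: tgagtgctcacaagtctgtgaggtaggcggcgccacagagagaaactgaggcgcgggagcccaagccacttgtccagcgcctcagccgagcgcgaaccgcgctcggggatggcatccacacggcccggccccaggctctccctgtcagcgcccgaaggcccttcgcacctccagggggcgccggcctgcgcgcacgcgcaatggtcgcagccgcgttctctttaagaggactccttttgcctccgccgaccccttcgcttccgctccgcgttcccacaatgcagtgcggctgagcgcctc
These 4 hold 35, 24, 32 and 33 CG dinucleotides, and the median was 30 over the 45 members and 14 over all 35116 promoters of the table. The starts used for the printed 4 lay 59, 2, 244 and 45 bases from the GENCODE gene start. For SRPK1 most of the bases before the start used thus lie inside the annotated gene. The 45 have a single start for each gene. The 35116 were not limited in that way, nor to genes with reads here, so the shares below compare unlike sets. TATAAA was present in 2 of 45 (HNRNPC and SRSF3; 4.44%), against 11.5% of all promoters. GGGCGG was present in 27 (60%), against 45%, CCAAT in 20 (44.4%), against 34.6%, TGACG in 17 (37.8%), against 24.6%, and CACGTG in 7 (15.6%), against 7.26%. Matches of different motifs may overlap each other. Of the 4 promoters printed, that of SF3B1 alone holds CACGTG. These matches are descriptions of letters, and factor binding was not measured.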

How the data were processed

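RNA-seq of 2 libraries was analysed. The authors deposited 1 table of FPKM values per gene with symbols, per the file headers. Build hg38 and the tool edgeR are named in the submitters' processing notes, with no role stated. The aligner, the counter, the annotation release and any use of strand are steps not given in the sources used here. Of 4 value columns, 2 match the sample labels and 2 were not used.

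Library totals were taken from genes with 1 read, for which 1000000000 divided by FPKM and exon length (GENCODE release 29) is the total. Reads followed from the exon length closest to the annotated length, within 0.25 to 4 times it, that made both values whole within 0.0001 reads, for 27805 of 28014 genes above 0, and for all 50 members (27 at the annotated length). They add up to 99.7% of each total. Counting intervals (95%) are Clopper-Pearson intervals, exact, of the ratio and cover counting error only. Genes entered where the mean FPKM reached 1, and log2 differences used a pseudocount of 1.

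Full values are given for the 12 members with the largest log2 difference and for CLK1, CLK2, CLK3, CLK4, SRPK1, SRSF1, SRSF3, HNRNPA1, U2AF1 and SF3B1; for other splicing genes, up to 3 in each direction. Others named were picked with their values in view. The members and lists were chosen with earlier results of these data known. The length and GC trend was a robust cubic fit (statsmodels 0.14.6) over all genes tested. Other settings tried were pseudocounts of 0.1 and 0.5, rescaling, centring and other filters. The calculations were tested on simulated libraries. Python 3.11.15, numpy 2.4.6 and scipy 1.17.1 were used.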

Additional observations from a re-analysis of the deposited data

How the results depend on the processing

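No paired analysis was possible because each group has 1 library, and for the same reason no library could be left out. Across the settings tried, 0 of the members passed 2-fold in either direction and 0 lay at or above 0.5. The number at or below -0.5 was 4 to 7, and the members' median was -0.14 to -0.19. Of all genes, 8.57% to 14.3% lay at or below -0.5, or 3.02% with no filter on low values. At or above 0.5 lay 10.4% to 14.9% of all genes, or 3.64% with no filter. After rescaling to a sum of 1000000, 40 of 49 members lay below 0. After removal of the length and GC trend, the median was -0.13 for hnRNPs, -0.19 for splice site recognition and core proteins and -0.10 for RBM proteins, against -0.26, -0.11 and -0.28. Of other splicing genes, 14 lay at or below -0.5 both with a pseudocount of 0.1 and after rescaling each library to a sum of 1000000, against 9. The share of all genes there was 14.3% and 13.9%, against 9.75%. At or above 0.5 lay 2 of the other splicing genes with a pseudocount of 0.1, 2 with no filter on low values and 0 with the trend taken off, against 1. The share of all genes there was 14.9%, 3.64% and 10.6%, against 11%. The cause of these shifts was not tested. In the rescaled setting the pseudocount and the limit on mean FPKM stayed at 1, and 15964 genes reached that limit, against 13241. With the trend taken off, the differences of HNRNPM, HNRNPA0, SRSF10 and HNRNPU changed sign, from 0.07, -0.07, -0.17 and -0.33 to -0.02, 0.03, 0.01 and 0.03. Besides U2AF1, depth limits CLK4, CLK1 and CLK2 most, with 148 to 728 reads per library.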

Other observations

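The SR protein genes SRSF8 and SRSF12 are outside the set of 50. SRSF12, a short SR-like repressor of splicing, had 0.132 FPKM with DMSO and 0.715 FPKM with the inhibitor on 14 and 74 reads, a ratio of 5.42 (3.03 to 10.4). With a mean FPKM under 1 it did not enter the counts, and it was picked out after its value was seen. SRSF8, a gene without introns in its coding part that is close in sequence to SRSF2, stood at 8.52 and 7.04 FPKM, a ratio of 0.827 (0.744 to 0.918). U2AF1L4, a relative of U2AF1 on chromosome 19, stood at 0.848 and 0.335 FPKM on 57 and 22 reads, so none of the 3 genes with the U2AF1 name reached 1 FPKM in either library.

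COX20, which overlaps exons of HNRNPU on the opposite strand, had 16.4 FPKM with DMSO and 9.36 FPKM with JNJ-7706621. The overlap covers part of the 15.6% of the HNRNPU exon length that exons of other genes share, and its part in the value of HNRNPU was not tested.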
